A study of Mus musculus with 24 samples.

Results

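Epsti1 and 6 genes known for their response to interferon, Ifit1, Ifit3, Ifih1, Parp14, Usp18 and Cgas, were followed in nuclear RNA of the mouse hippocampus, as 7 of the 55254 genes counted. Epsti1 was chosen by its own values in these libraries, since its change in Ogg1-/- differed between neurons and glia, and the other 6 were selected on their function, to show whether interferon-response genes moved with it. All 7 were found by symbol and passed the filter on low counts in both cell types, with 17 to 1503 counts in every library. Nuclei from male C57BL/6N mice aged 6 months and kept in the home cage were sorted by the neuronal protein NeuN into NeuN+ (neuronal) and NeuN- (mostly glial) nuclei. Within each there were 3 libraries of WT mice, 3 of Mutyh-/- mice, 3 of Ogg1-/- mice and 3 of DKO mice, which lack both genes and were bred by crossing Ogg1-/- with Mutyh-/-. Ogg1 is the DNA glycosylase that removes oxidised guanine, and Mutyh removes adenine paired with it. Animals of a genotype were pooled before sorting, and whether the libraries of a group come from separate pools is not clear, so p-values measure only the spread between these libraries, which may be technical. NeuN+ and NeuN- libraries ran on different sequencing lanes, so the lane and the sorted cell type cannot be told apart.

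Interferons are secreted proteins that warn cells of viral or foreign nucleic acid. They bind receptors whose kinases activate transcription factors, and these bind interferon-stimulated response elements in promoters. Cgas and Ifih1 act before interferon, as cytosolic sensors of DNA and of double-stranded RNA, and are themselves induced by it. Ifit1, Ifit3 and Parp14 are induced effectors, and Usp18 removes Isg15 from proteins and damps the receptor. Epsti1 is an interferon-induced gene best known from macrophages and tumour stroma. In brain, microglia and other glia carry much of this response.

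The genes lie apart in the genome (GRCm38, GENCODE vM21): Epsti1 at chr14:77904239-78002657, Ifit3 at chr19:34583531-34588731, Ifit1 at chr19:34640871-34650009, Ifih1 at chr2:62595798-62646255, Parp14 at chr16:35832874-35871544, Usp18 at chr6:121245906-121270917 and Cgas at chr9:78430526-78443237. Only Usp18 shares a chromosome with a deleted gene, 7.91 Mb from Ogg1. Promoter stretches from RefSeq (GRCm38.p6) are given because 2 members carry the element that interferon signalling reads and Epsti1 does not within the same window. The 250 bases before the start were searched on both strands for the core of the response element, GAAA and GAAA with any 2 bases (NN) between them, in capitals below where it lies on the opposite strand, and for the gamma-activated site TTCNNNGAA, which does not overlap it in these windows.
Ifit1, chr19:34640765-34640833, + strand: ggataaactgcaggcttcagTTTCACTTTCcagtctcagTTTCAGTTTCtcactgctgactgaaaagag
Ifit3, chr19:34583353-34583436, + strand: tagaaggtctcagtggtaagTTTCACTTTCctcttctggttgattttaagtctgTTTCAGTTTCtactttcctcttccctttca
Epsti1, chr14:77904139-77904238, + strand: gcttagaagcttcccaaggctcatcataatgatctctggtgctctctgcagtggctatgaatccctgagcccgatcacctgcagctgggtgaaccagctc
The cores began 104 and 85 bases before the start in Ifit1, and 156 and 122 bases before it in Ifit3. Epsti1, Ifih1 and Cgas held 0 cores in their windows, and none of these 5 windows held a gamma-activated site. Parp14 and Usp18 were not searched. Of 27025 genes with a window, 3.46% held the core and 8.13% the gamma-activated site, and of 91 genes with a window in the interferon pathway list described further on, 25 (27.5%) held the core.

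Library totals ranged from 56563586 to 96192142 counts (median 70434612). Levels are given as CPM, counts scaled to library size with TMM factors over all 24 libraries, and differences as log2 fold changes from edgeR's quasi-likelihood test with p adjusted over all genes of the fit. A gene is called at an adjusted p under 0.05 and a log2 fold change beyond 0.5 in either direction, or beyond 1 between WT cell types. No fold limit applies to the difference between cell types in a genotype's change, or to departure from additivity. There the adjusted p alone decides. Gene-level Ogg1 RNA did not fall in libraries labelled Ogg1-/- (log2 fold change 0.05 in NeuN+ and 0.02 in NeuN-), and Mutyh RNA was higher in those labelled Mutyh-/- (3.15, adjusted p = 2.34e-08, and 1.85, adjusted p = 4.22e-05). In DKO, Mutyh RNA was higher too (2.99, adjusted p = 3.06e-08, and 1.61, adjusted p = 1.04e-04). Within each cell type, all Mutyh-/- and DKO libraries lay above all WT and Ogg1-/- libraries for Mutyh. Ogg1 RNA did not separate the genotypes. Counts over whole genes do not show whether a deleted part was read, so they do not show the loss of either gene. The summed level of 8 microglial markers was 97.9 to 103 CPM in the NeuN+ libraries and 660 to 866 CPM in the NeuN- libraries. Single markers differed widely in this, with log2 differences of WT NeuN+ against NeuN- from -8.17 to -1.22 (median -4.98).

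Epsti1 RNA in NeuN- nuclei was lower in Ogg1-/- than in every other genotype, and in NeuN+ nuclei it was higher. The NeuN- libraries held 13.7, 13.4 and 12.9 CPM in WT and 8.07, 6.73 and 7.71 CPM in Ogg1-/-. All 3 Ogg1-/- libraries lay below all WT libraries, with a mean of 7.50 ± 0.695 CPM (SD, n = 3) against 13.3 ± 0.412 CPM (SD, n = 3). The log2 fold change was -0.83. In NeuN+ nuclei the libraries held 0.860, 0.988 and 0.776 CPM in WT and 1.43, 1.46 and 1.19 CPM in Ogg1-/-. Here all 3 Ogg1-/- libraries lay above all WT libraries, with a mean of 1.36 ± 0.148 CPM (SD, n = 3) against 0.875 ± 0.107 CPM (SD, n = 3), and a log2 fold change of 0.61. The difference between the cell types in this change was 1.46 on the log2 scale. These are the values that chose Epsti1, so no test is attached to them.

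**Figure D1:**
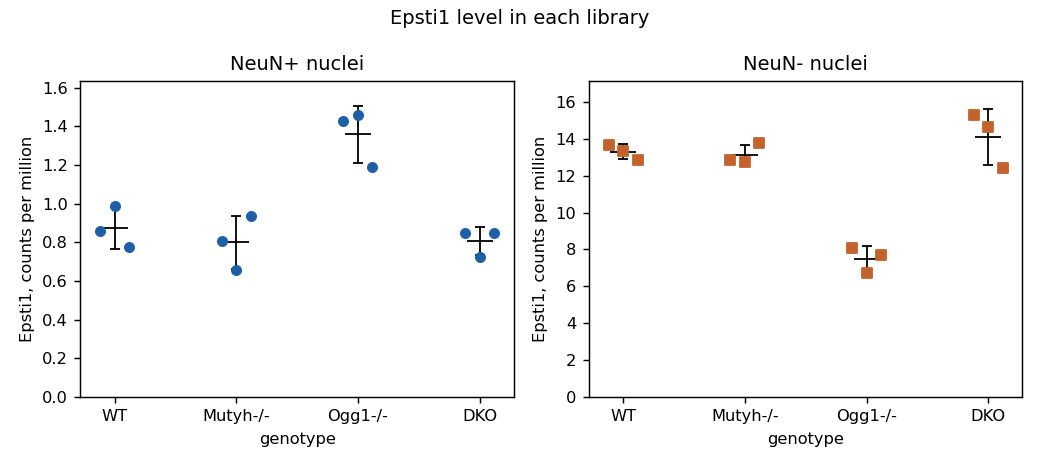
Epsti1 level in CPM (vertical axis, starting at 0) in each of the 24 libraries, by genotype, with NeuN+ nuclei on the left and NeuN- nuclei on the right. Points are libraries, and black bars are the mean and SD of 3. The Ogg1-/- libraries sit above the rest in NeuN+ (1.19 to 1.46 CPM) and below the rest in NeuN- (6.73 to 8.07 CPM).

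DKO mice lack Ogg1 as well, and their Epsti1 level lay near that of WT, with no overlap with Ogg1-/-. In NeuN- nuclei the DKO libraries held 15.3, 14.7 and 12.4 CPM and the Mutyh-/- libraries 12.9, 12.7 and 13.8 CPM. The ranges overlapped each other and that of WT, and every one of these libraries lay above the highest Ogg1-/- library. In NeuN+ nuclei the DKO libraries held 0.847, 0.722 and 0.848 CPM and the Mutyh-/- libraries 0.806, 0.658 and 0.935 CPM, which overlap and lie below the lowest Ogg1-/- library.

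The comparison of DKO with Mutyh-/- asks what Ogg1 loss does where Mutyh is also missing, in 12 libraries that played no part in choosing Epsti1. Epsti1 was not called in it. The log2 fold change was 0.11 in NeuN- nuclei (95% interval -0.07 to 0.29, adjusted p = 0.657) and -0.02 in NeuN+ nuclei (95% interval -0.40 to 0.35, adjusted p = 0.989). The difference between the cell types was -0.11 (95% interval -0.48 to 0.25, adjusted p = 0.929), where 0.00895% of 33523 genes passed the test. Against WT, which shares its libraries with the values that chose the gene, the log2 fold change in DKO was 0.08 in NeuN- (adjusted p = 0.728) and -0.13 in NeuN+ (adjusted p = 0.785), and in Mutyh-/- it was -0.03 (adjusted p = 0.921) and -0.11 (adjusted p = 0.791). The departure of DKO from the sum of the changes in the other 2 knockouts was 0.94 in NeuN- and -0.64 in NeuN+ on the log2 scale, which rests on the same Ogg1-/- and WT libraries and is a description.

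Ordered by mean level, the 8 groups ran from DKO, WT and Mutyh-/- NeuN- (14.1, 13.3 and 13.1 CPM), whose libraries overlapped from each to the next, to Ogg1-/- NeuN- (7.50 CPM), then Ogg1-/- NeuN+ (1.36 CPM), and then WT, DKO and Mutyh-/- NeuN+ (0.875, 0.805 and 0.800 CPM), which overlapped again. The steps on either side of the Ogg1-/- groups showed no overlap. Epsti1 had its higher level in NeuN- in all 4 genotypes.

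In Ogg1-/- NeuN- nuclei, where Epsti1 was lower, the markers of several cell types shared a sign within the type, and 1 of these markers was called. The summed level of microglial markers was 704 to 787 CPM there and 742 to 866 CPM in WT NeuN-. All 8 markers had negative log2 fold changes, from -0.18 to -0.04 with a median of -0.08, and 0 were called (lowest adjusted p = 0.694). In sorted nuclei, fewer nuclei of a type and less RNA per nucleus cannot be told apart, and the part of microglia in the Epsti1 value was not tested. Astrocyte markers were above 0 for 6 of 6 (median 0.25), and Aldh1l1, an astrocyte enzyme, was called (0.52, adjusted p = 0.0483). Their summed level was 3247 to 4112 CPM against 2789 to 3314 CPM in WT NeuN-. Oligodendrocyte markers were below 0 for 5 of 5 (median -0.22), those of oligodendrocyte precursors for 3 of 3 (median -0.13), those of neurons for 8 of 8 (median -0.28) and those of endothelium for 3 of 3 (median -0.21), with 0 called. In DKO NeuN-, where Epsti1 lay near WT, the medians were 0.25 for astrocytes, -0.22 for oligodendrocytes, -0.14 for oligodendrocyte precursors and -0.27 for neurons. Microglial markers there had a median of -0.03 (2 of 8 above 0) and endothelial markers one of 0.10 (3 of 3 above 0). The part of these cell types in the Epsti1 value was not tested. T cell and leukocyte markers summed to 31.7 to 33.2 CPM in Ogg1-/- NeuN- against 31.2 to 35.1 CPM in WT NeuN-. Choroid plexus markers ranged from 7.73 to 82.7 CPM among the Ogg1-/- NeuN- libraries and from 5.90 to 181 CPM among the DKO NeuN- libraries. Epsti1 was at 6.73 to 8.07 CPM and 12.4 to 15.3 CPM in these libraries. The part of leukocytes and of choroid plexus cells in the Epsti1 value was not tested either.

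Between WT cell types, 42.9% of 33523 genes were called, and 4 of the 6 other members were among them, each lower in NeuN+ as Epsti1 was (log2 difference -3.92, standard error 0.12, adjusted p = 3.75e-18). Usp18 (-3.54), Parp14 (-3.49), Ifih1 (-3.44) and Ifit3 (-2.27) were the 4. Cgas was lower in NeuN+ by less than the limit (-0.88). Ifit1 was the exception, at 1.68 ± 0.305 CPM (SD, n = 3) in NeuN+ and 1.08 ± 0.124 CPM (SD, n = 3) in NeuN- (log2 difference 0.64, adjusted p = 0.00284, under the limit of 1), and its NeuN+ libraries lay above its NeuN- libraries in WT. Per kilobase of exon, the mean level in WT NeuN- was highest for Epsti1 (5.73 CPM per kb), then Ifit3 (2.12), Usp18 (1.91), Parp14 (1.05), Ifih1 (0.790), Cgas (0.614) and Ifit1 (0.407). In WT NeuN+ the order per kilobase was Ifit1 (0.633 CPM per kb), Ifit3 (0.439), Epsti1 (0.377), Cgas (0.334), Usp18 (0.164), Parp14 (0.0934) and Ifih1 (0.0725).

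None of the 6 other members was called in Ogg1-/- against WT, in either cell type. Of all genes tested there, 0.574% were called in NeuN+ and 0.229% in NeuN-. At an unadjusted p under 0.05 the count was 0 of 6 in NeuN+ and 1 of 6 in NeuN-, beside 12.3% and 11.8% of all genes. The 1 was Usp18. By edgeR's likelihood ratio test 0 were called as well. DESeq2 also called 0, but in NeuN+ it gave no adjusted p for Ifit3, Ifih1, Parp14 and Usp18, so it could not call them there. The log2 fold changes ran from -0.45 to 0.05 in NeuN+ (5 of 6 below 0) and from -0.32 to 0.12 in NeuN- (3 of 6 below 0). The difference between the cell types, 1.46 for Epsti1, lay between -0.38 and -0.0014 for these 6, and 0 of 6 passed the test (lowest adjusted p = 0.775), as did 0.0537% of all genes.

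Of the sensors, Ifih1 held 6.26, 7.0 and 6.09 CPM in WT NeuN- and 6.22, 6.54 and 6.55 CPM in Ogg1-/- NeuN-. The Ogg1-/- libraries lay inside the WT range (log2 fold change -0.01, 95% interval -0.20 to 0.18, adjusted p = 0.983). In DKO NeuN- it held 7.24, 6.52 and 7.30 CPM, and in Mutyh-/- NeuN- 5.54, 5.98 and 6.64 CPM. In NeuN+ nuclei Ifih1 was at a low level, with 0.681, 0.648 and 0.446 CPM in WT and 0.446, 0.318 and 0.296 CPM in DKO, or 22 to 29 counts per DKO library. The highest DKO library and the lowest WT library were level at 0.446 CPM, with a log2 fold change of -0.76 (standard error 0.24, 95% interval -1.27 to -0.25, unadjusted p = 0.00601, adjusted p = 0.176) that was not called. Cgas held 2.24, 2.79 and 2.57 CPM in WT NeuN- and 3.13, 1.92 and 2.18 CPM in Ogg1-/- NeuN-, a wider spread around a similar mean (log2 fold change -0.07, adjusted p = 0.913). In NeuN+ its group means lay between 1.30 and 1.5 CPM in the 4 genotypes, and its libraries overlapped between each knockout and WT in both cell types. Cgas shares 201 exon bases with Gm8093, so its counts depend on how shared reads were assigned.

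Of the effectors, Ifit1 held 1.02, 0.995 and 1.22 CPM in WT NeuN- and 0.917, 1.07 and 1.57 CPM in Ogg1-/- NeuN-, which overlap (log2 fold change 0.12, 95% interval -0.32 to 0.56, adjusted p = 0.877). Its DKO NeuN- libraries, at 1.08, 1.48 and 1.48 CPM, lay above the Mutyh-/- NeuN- libraries at 1.01, 1.05 and 1.03 CPM (log2 fold change 0.39, 95% interval -0.05 to 0.82, adjusted p = 0.501). Ifit3 held 3.50, 4.08 and 3.53 CPM in WT NeuN- and 3.70, 3.6 and 4.35 CPM in Ogg1-/- NeuN- (log2 fold change 0.06, 95% interval -0.27 to 0.40, adjusted p = 0.924). The highest Ifit3 level of any library was 5.06 CPM in DKO NeuN- replicate 1, where the other 2 held 3.33 and 3.40 CPM, so the small positive value of DKO against WT (0.09) turns to -0.14 without that library. In NeuN+ nuclei Ifit1 group means lay between 1.65 and 1.71 CPM and Ifit3 group means between 0.655 and 0.812 CPM. Neither gene was called in any of the comparisons of genotypes, and Ifit1 and Ifit3 carry the response element cores shown above.

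Parp14, a mono-ADP-ribosyltransferase, differed in sign between the cell types of DKO. In NeuN- the DKO libraries held 11.4, 12.3 and 11 CPM and the WT libraries 9.60, 9.84 and 9.96 CPM. All DKO libraries lay above all WT libraries (log2 fold change 0.23, 95% interval 0.03 to 0.43, unadjusted p = 0.0266, adjusted p = 0.344). In NeuN+ they held 0.646, 0.635 and 0.444 CPM against 1.14, 0.761 and 0.710 CPM in WT, all below (log2 fold change -0.61, 95% interval -1.10 to -0.13, adjusted p = 0.251). The difference between the cell types was -0.84 (95% interval -1.30 to -0.38, adjusted p = 0.208) and was not called by the quasi-likelihood test, while DESeq2 called it (-0.82, adjusted p = 0.0393). Parp14 shares 110 exon bases with Gm49730. For Ifih1 in DKO, whose libraries overlapped those of WT in both cell types, the difference between the cell types was -0.88 (95% interval -1.32 to -0.44, adjusted p = 0.171). Among all genes 0.0567% passed the test of this difference.

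Usp18, which restrains interferon signalling, came nearest to a call with Ogg1 loss. In NeuN- the libraries held 5.34, 5.21 and 5.43 CPM in WT, 4.14, 4.32 and 4.44 CPM in Ogg1-/-, 5.94, 5.76 and 6.77 CPM in Mutyh-/- and 4.45, 5.14 and 5.61 CPM in DKO. The Ogg1-/- libraries lay below all WT libraries (log2 fold change -0.32, 95% interval -0.53 to -0.11, unadjusted p = 0.00642, adjusted p = 0.222), and the DKO libraries below all Mutyh-/- libraries (-0.28, 95% interval -0.49 to -0.07, adjusted p = 0.336). Averaged over both Mutyh backgrounds, 6 libraries without Ogg1 against 6 with it, the log2 fold change was -0.30 (standard error 0.07, 95% interval -0.45 to -0.15, unadjusted p = 8.20e-04, adjusted p = 0.0714), which is also under the fold limit. At about the same fold the adjusted p was 0.0271 by the likelihood ratio test, 0.00762 by DESeq2 and 0.0469 with the replicate block, so there the fold limit alone kept it from being called. In NeuN+ nuclei, where Usp18 had 17 to 35 counts per library, this average was -0.60 (95% interval -1.01 to -0.19, adjusted p = 0.181). Usp18 shares 124 exon bases with the antisense gene Gm44148, and a strand setting of the counting is not given in the sources used here.

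**Figure D2:**
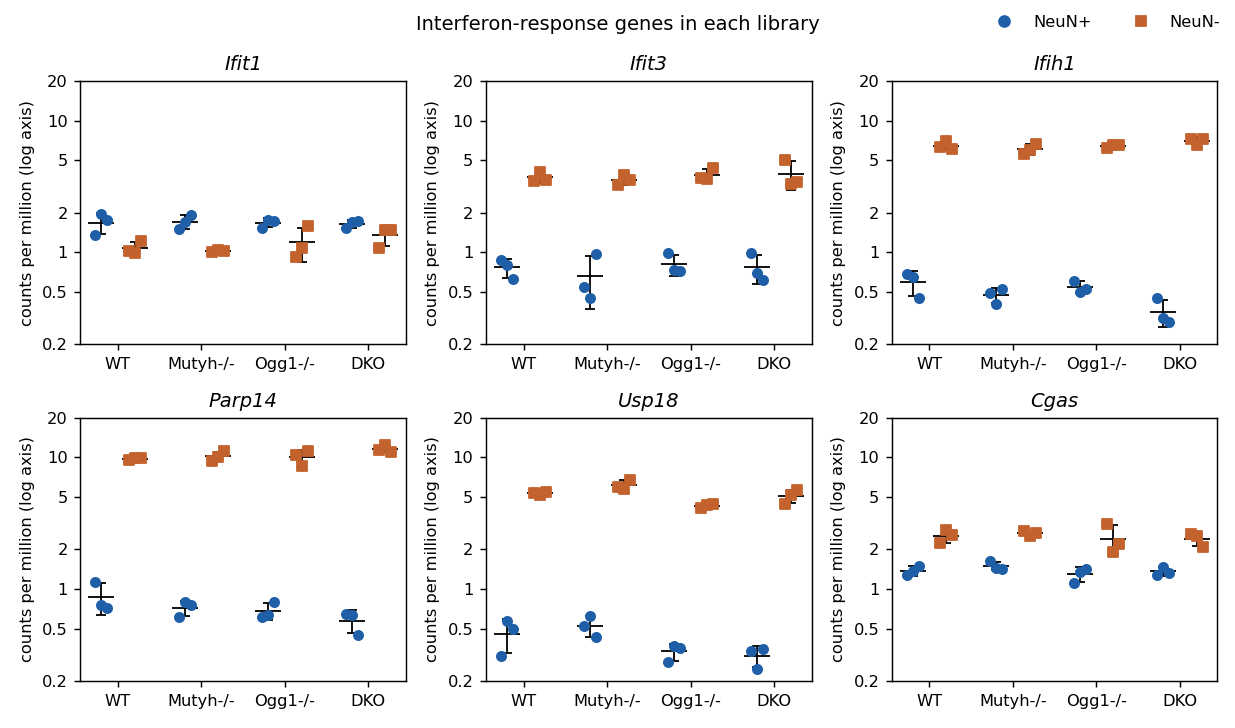
Levels of the 6 other members in CPM (vertical log axis from 0.2 to 20) in each library, by genotype. Blue circles are NeuN+ and orange squares NeuN- libraries, with the mean and SD of 3 in black. The orange points lie far above the blue ones for Ifit3, Ifih1, Parp14 and Usp18, and below them for Ifit1 in WT (1.08 against 1.68 CPM on average).

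In the other comparisons of genotypes 0 of the 6 were called too, by the quasi-likelihood test and by the likelihood ratio test. DESeq2 called Parp14 in the DKO difference given above and no other. It gave an adjusted p for only 82 of 119 values of the 7 genes over all comparisons, and could not call the rest. Against WT, 0.428% of all genes were called in Mutyh-/- NeuN+, 0.273% in Mutyh-/- NeuN-, 0.302% in DKO NeuN+ and 0.116% in DKO NeuN-. In DKO against Mutyh-/- the shares were 0.139% in NeuN+ and 0.122% in NeuN-, and for Ogg1 loss over both Mutyh backgrounds 0.332% and 0.264%. Departure from additivity passed the test for 0.159% of genes in NeuN+ and 0.122% in NeuN-, and the difference between cell types in the Mutyh-/- change for 0.0209%. At an unadjusted p under 0.05 the counts of the 6 were between 0 and 2 in every one of these comparisons, beside 6.86% to 18.7% of all genes. The median log2 fold change of the 6 was -0.30 in DKO NeuN+ (all 6 below 0) and 0.10 in DKO NeuN- (4 of 6 above 0), beside medians over all genes of -0.00053 and 0.0066.

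**Figure D3:**
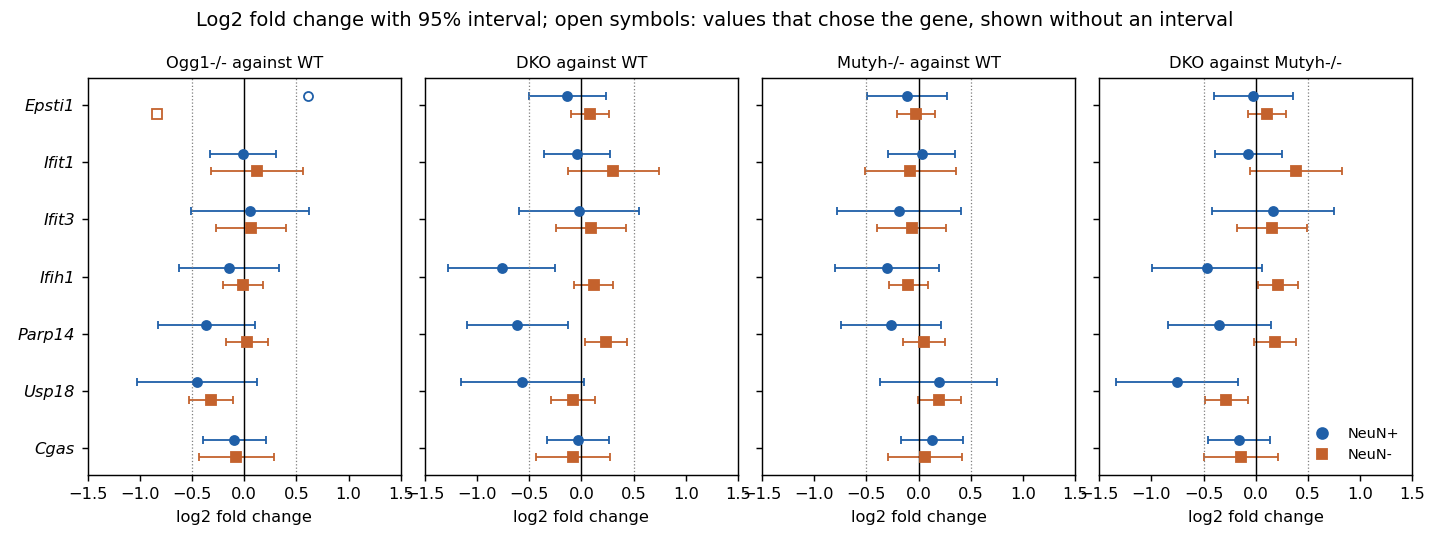
Log2 fold changes of the 7 genes (horizontal axes) in 4 comparisons, with blue circles for NeuN+ and orange squares for NeuN-. Bars are 95% intervals from the quasi-likelihood fit, dotted lines mark the fold limit of 0.5, and open symbols are the Epsti1 values that chose the gene (0.61 and -0.83). Outside these open symbols, Epsti1 stays between -0.13 and 0.11.

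The wider pathway was described with a list of 113 other interferon genes. Of these, 81 were tested in NeuN+ and 102 in NeuN-. In Ogg1-/- against WT 0 of 81 and 0 of 102 were called, and the likelihood ratio test called 1 and 0 and DESeq2 0 and 0. At an unadjusted p under 0.05 there were 9 and 11, beside 12.3% and 11.8% of all genes. The median of the list was -0.01 in NeuN+ and 0.03 in NeuN-, beside 0.0086 and 0.00085 for all genes. Isg15, the ubiquitin-like modifier that Usp18 removes, had the smallest p of the genes above 0 in NeuN+, with 0.656, 0.545 and 0.453 CPM in Ogg1-/- and 0.292, 0.243 and 0.264 CPM in WT (log2 fold change 1.01 ± 0.28 SE, adjusted p = 0.0991). Its Ogg1-/- libraries all lay above WT, and in NeuN- the levels were 0.288 ± 0.062 and 0.287 ± 0.046 CPM (SD, n = 3). Trim25, a ubiquitin ligase of the RNA sensor pathway, had the smallest p below 0 in NeuN+ (-0.80, adjusted p = 0.153). In NeuN- these were H2-K1, a class I antigen-presenting molecule (0.29, adjusted p = 0.174), and Aim2, a DNA sensor of the inflammasome (-0.36, adjusted p = 0.282).

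By role, the ligands were almost silent. Ifnb1 and Ifna4 were at 0 counts in all 24 libraries, and Ifng, Ifne, Ifna1, Ifna2, Ifnl2 and Ifnl3 reached at most 3 counts in a library, so a change in them was not detectable at this depth. Ifnk was the exception. It was the only gene of the list called against WT, in Mutyh-/- NeuN-, with 2.48, 2.50 and 2.30 CPM against 1.58, 1.37 and 1.60 CPM (log2 fold change 0.67 ± 0.11 SE, adjusted p = 0.0300). It held 1.72 ± 0.132 CPM (SD, n = 3) in Ogg1-/- and 1.85 ± 0.189 CPM (SD, n = 3) in DKO. This call was lost in 6 of the 12 fits that left out 1 NeuN- library. Receptors and signal carriers (18 tested) had a median of 0.02 in Ogg1-/- NeuN-, sensors and adaptors (17 tested) 0.03, antiviral effectors (39 tested) 0.00065, genes induced by interferon gamma (22 tested) 0.13, and negative regulators (5 tested) 0.03.

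In DKO NeuN- nuclei no gene of the list was called by the quasi-likelihood test. Of 102 genes, 85 had a log2 fold change above 0, with a median of 0.13 beside 0.01 over all genes, and 23 (beside 12.4% of all genes) had an unadjusted p under 0.05. The likelihood ratio test called 2 and DESeq2 4. Genes induced by interferon gamma had 21 of 22 above 0 and a median of 0.27, antiviral effectors had 32 of 39 above 0 and a median of 0.16, and Ifnk, the 1 ligand tested, was at 0.28. H2-K1 (0.40, adjusted p = 0.0776) and Herc6, a ligase for Isg15 (0.31, adjusted p = 0.0967), had the smallest p. In DKO against Mutyh-/- NeuN-, which uses the same DKO libraries, 72 of 102 genes were above 0 and 30 below (median 0.10), with 0 called. Genes induced by interferon gamma had 20 of 22 above 0 there (median 0.22), and antiviral effectors 34 of 39 (median 0.19). Receptors and signal carriers had 8 of 18 above 0, and sensors and adaptors 8 of 17. For Ogg1 loss over both Mutyh backgrounds in NeuN-, 74 of 102 were above 0 (median 0.05). Gbp6, an interferon-induced GTPase, was called higher with Ogg1 loss over both Mutyh backgrounds in NeuN- (log2 fold change 0.68 ± 0.14 SE, adjusted p = 0.0476). Its libraries held 3.76, 4.31 and 5.45 CPM in Ogg1-/- and 4.89, 4.47 and 5.48 CPM in DKO, all above the 3.15, 3.04 and 3.14 CPM of WT and the 1.96, 2.75 and 3.68 CPM of Mutyh-/-. The call was lost in 11 of the 12 fits that left out 1 NeuN- library. Of the T cell and leukocyte markers, 4 of 4 tested were above 0 in DKO NeuN- with a median of 0.33, and the 3 choroid plexus markers had a median of 1.11 with 0 called, while astrocyte markers were above 0 for 6 of 6 (median 0.25), oligodendrocyte markers below 0 for 5 of 5 (median -0.22) and neuron markers below 0 for 8 of 8 (median -0.27). The part of these cell types in the values of the list was not tested.

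**Figure D4:**
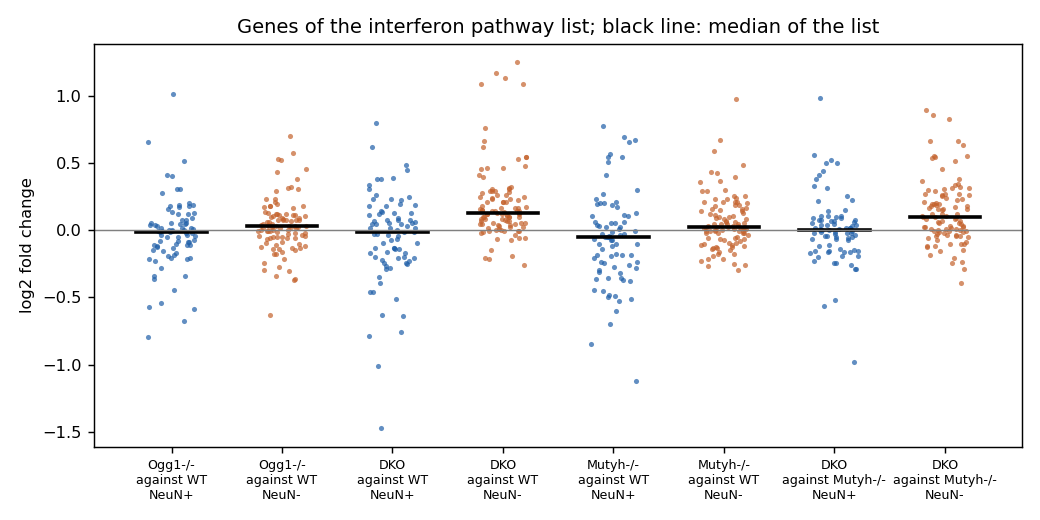
Log2 fold change (vertical axis) of each tested gene of the interferon pathway list in 8 comparisons, blue for NeuN+ and orange for NeuN-. Each point is a gene and the black line is the median of the list, which is 0.13 in DKO NeuN- against WT and between -0.05 and 0.10 in the others.

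Between WT cell types the list followed Epsti1. Of 102 genes, 77 were called, 74 of them lower in NeuN+, and the list's median was -2.42 beside -0.01 over all genes. Irf8, a transcription factor of microglia and macrophages, had the smallest p (log2 difference -5.19, adjusted p = 1.09e-18), then Trim30a (-3.65). Adar (1.23), Parp10 (1.16) and Ifit1bl1 (1.58) were the 3 called higher in NeuN+. Adar edits double-stranded RNA.

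The genes around Epsti1 were examined because a change could be shared along the chromosome. Within 1 Mb, 21 neighbours were tested in NeuN+ and 22 in NeuN-. Lacc1, an enzyme of macrophage metabolism 867 kb before Epsti1, was lower in Ogg1-/- in both cell types. It held 1.51, 1.51 and 1.59 CPM in Ogg1-/- NeuN+ against 4.85, 4.34 and 4.33 CPM in WT (log2 fold change -1.57, adjusted p = 0.00103). In NeuN- it held 3.97, 3.52 and 4.51 CPM against 10.4, 8.92 and 7.49 CPM (-1.17, adjusted p = 0.00743). The libraries did not overlap in either cell type. As with Epsti1, DKO was not called against WT, at -0.32 in NeuN+ (adjusted p = 0.493) and -0.24 in NeuN- (adjusted p = 0.577). The departure from additivity passed the test in NeuN+ (1.82, adjusted p = 0.0113). Unlike Epsti1, Lacc1 also lay below all WT libraries in Mutyh-/- NeuN+, at 2.72, 2.13 and 4.06 CPM, though not called. That lower level enters the departure from additivity.

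Enox1, a cell surface oxidase gene 182 kb before Epsti1, also differed between the cell types in its Ogg1-/- change. The sign of its difference was opposite to that of Epsti1, and in NeuN+ it lay near WT. In NeuN- it held 704, 691 and 657 CPM in Ogg1-/- against 509, 477 and 510 CPM in WT, all above (log2 fold change 0.45 ± 0.05 SE, adjusted p = 5.98e-04), which is under the fold limit. In NeuN+ it held 997, 1053 and 1033 CPM against 1117, 990 and 1019 CPM, which overlap (-0.04, adjusted p = 0.840). The difference between the cell types was -0.48 (adjusted p = 0.00645) and passed the test. In DKO NeuN- it was at -0.02 (adjusted p = 0.922), and its departure from additivity was -0.56 (adjusted p = 0.00292). Gm10132, 652 kb before Epsti1, was lower in Ogg1-/- NeuN+ (-1.13, adjusted p = 0.00261). The nearest neighbours were not called: Dnajc15, a mitochondrial co-chaperone 29.1 kb before Epsti1, was at -0.22 in Ogg1-/- NeuN+ (adjusted p = 0.114) and -0.01 in NeuN- (adjusted p = 0.961), and Gm48954, 17.1 kb after it, held at most 0.442 CPM in any library.

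In Ogg1-/-, several called genes lay within 5 Mb of Epsti1. This wider window was set after the values within 1 Mb were seen, and no test of position was run. Within 5 Mb, Epsti1 left out, 6 of 89 tested genes (6.74%) were called in Ogg1-/- NeuN+ and 5 of 93 (5.38%) in NeuN-, beside 4 of 1090 (0.367%) and 2 of 1220 (0.164%) farther away on the chromosome. In DKO against WT the counts within 5 Mb were 0 of 89 and 0 of 93 by the quasi-likelihood test, and 1 and 0 by both the likelihood ratio test and DESeq2. At an unadjusted p under 0.05 there were 8 and 10 in DKO, beside 13.5% and 12.4% of all genes. The same counts in Ogg1-/- were 35 of 89 and 31 of 93, beside 12.3% and 11.8% of all genes. Esd (esterase D), 3.15 Mb before Epsti1, held 4.74, 5.10 and 4.15 CPM in Ogg1-/- NeuN+ against 9.80, 9.85 and 9.66 CPM in WT (log2 fold change -1.08, adjusted p = 1.13e-04), and in NeuN- its change was -0.95 (adjusted p = 1.65e-04). Gm49200, a predicted gene 2.50 Mb before it, held 6.71, 7.40 and 7.38 CPM against 1.15, 1.25 and 1.14 CPM in NeuN+ (2.58, adjusted p = 1.05e-05), and its NeuN- change was 2.16 (adjusted p = 0.00139). Rcbtb2, 4.70 Mb before it, was at -0.69 in NeuN+ (adjusted p = 2.85e-05). In DKO, Esd was at -0.22 and -0.14, Gm49200 at 0.23 and 0.50, and Rcbtb2 at 0.06 and 0.05 in NeuN+ and NeuN-, none of them called. What these genes share besides their position was not tested. In Mutyh-/- 0 genes were called within 5 Mb by the quasi-likelihood test. At an unadjusted p under 0.05 there were 18 in NeuN+ and 9 in NeuN-, beside 18.7% and 13.7% of all genes. Between 5 and 10 Mb, 18 of 83 in NeuN+ and 14 of 81 in NeuN- were called in Mutyh-/-, all higher. Around Ogg1 on chromosome 6, 3 of 129 genes (2.33%) within 5 Mb were called in Ogg1-/- NeuN+ and 6 of 137 (4.38%) in NeuN-. Farther away the counts were 15 of 1383 (1.08%) and 12 of 1504 (0.798%). Among these, the counts between 5 and 10 Mb, where Usp18 lies, were 2 of 93 (2.15%) and 3 of 96 (3.1%). Beyond 10 Mb they were 13 of 1290 (1.01%) and 9 of 1408 (0.639%).

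**Figure D5:**
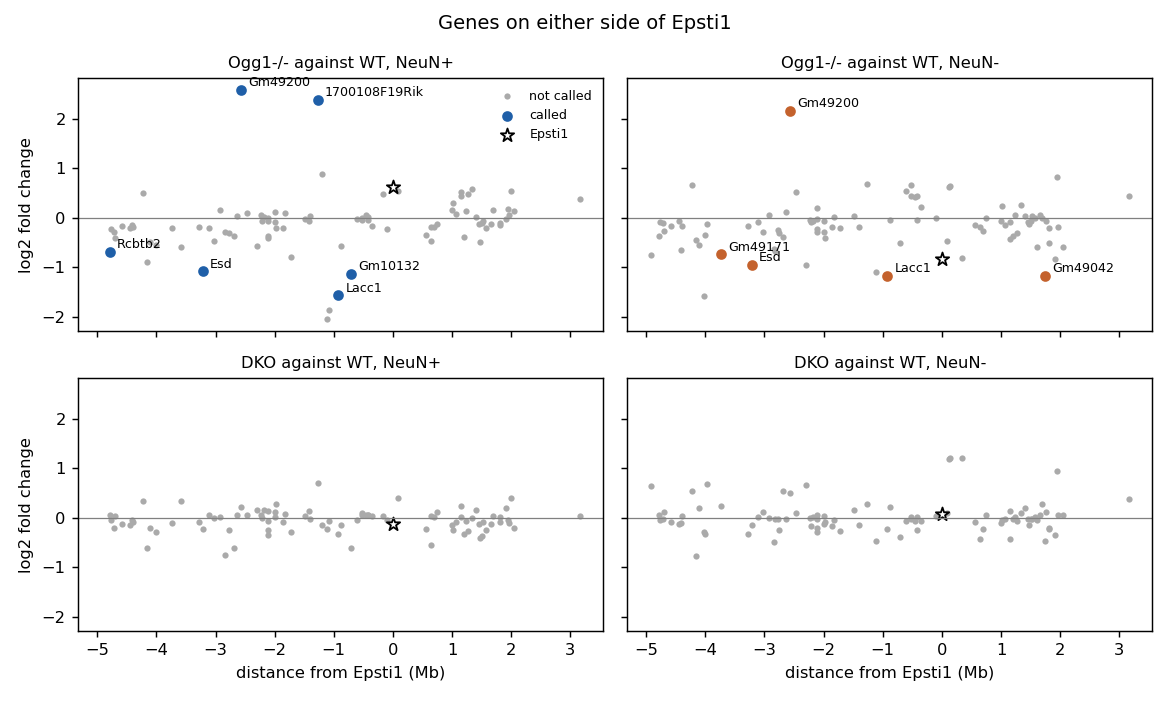
Log2 fold change (vertical axis) of tested genes within 5 Mb of Epsti1 by the distance between gene midpoints (horizontal axis, Mb). Rows are Ogg1-/- and DKO against WT, columns NeuN+ and NeuN-. Coloured points are called genes, grey points are not called, and the star is Epsti1. The Ogg1-/- panels hold 6 and 5 called genes and the DKO panels 0.

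Across all 24 libraries, the genes whose log2 CPM followed Epsti1 most closely were Kif6 (Pearson r = 0.990), A230009B12Rik (0.989), Trim30a (0.988), Tnfsf12 (0.988) and Il4ra (0.988), of 33522 genes. These values describe the difference between the sorted cell types, which all libraries share, and Ifih1 (0.980), Parp14 (0.975), Ifit3 (0.968), Usp18 (0.968) and Cgas (0.913) had it too, while Ifit1 was at -0.783. With the mean of each cell type taken off, the closest genes were Gm12784 (0.814), Ccn4 (0.765), Ace3 (0.720), Epb41 (0.703) and Lipg (0.698). The members then lay at 0.336 for Ifih1, 0.290 for Ifit3, 0.067 for Parp14, 0.040 for Usp18, 0.006 for Ifit1 and -0.007 for Cgas, which are low or weak values over libraries that share depth and genotype. Some of the closest genes were near the floor. Ace3 held 0.0135, 0 and 0 CPM in Ogg1-/- NeuN-, and the highest group mean of Gm12784 was 0.616 CPM. The Ogg1-/- and WT libraries that chose Epsti1 enter this ranking, so it is a description.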

How the data were processed

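Nuclei of the hippocampus were sorted by NeuN and their RNA sequenced in 24 libraries, 3 per genotype and cell type. The authors deposited whole-number read counts per gene, made with HISAT2 2.1.0, SAMtools 1.10 and featureCounts on GRCm38 with an Ensembl annotation, and no normalization. Strand, overlap and multimapping settings are not given in the sources used here. Counts were tested with edgeR 4.0.16 in R 4.3.3 (TMM, filterByExpr, quasi-likelihood test, Benjamini-Hochberg over all genes), with the 12 libraries of a cell type in 1 fit and all 24 for contrasts between cell types. The step was tested on simulated counts. DESeq2 1.42.0, edgeR's likelihood ratio test, other filters and size factors, a replicate block and leaving out each library were alternatives.

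The members, the lists and the comparisons were chosen with earlier results of these data known. Genes named beyond the members were the targeted genes, list genes called or among the 2 smallest p in each direction, called genes within 1 Mb of Epsti1 and its nearest neighbours, and the 5 genes most like Epsti1. Genes named farther than 1 Mb from Epsti1 were chosen after their values were seen. Intervals are at 95%.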

Additional observations from a re-analysis of the deposited data

Results flagged for a closer look

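The change of Epsti1 in Ogg1-/- against WT differed between NeuN+ and NeuN- nuclei by 1.46 on the log2 scale, with all 3 Ogg1-/- libraries above WT in NeuN+ and all 3 below WT in NeuN-. This difference is what chose the gene, so it carries no test.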

How the results depend on the processing

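The replicate number was tried as a block. Within a genotype, NeuN+ and NeuN- libraries that share a number deviated together with a mean r of 0.111 (0.011 to 0.29), against -0.055 for different numbers, of which 1 of 24 was above 0.1. As a hint from the data, all same-number pairs were above 0, but 6 of 12 were above 0.1 and not every library correlated best with its own number, so pairing stays unsettled and the fit without it was kept. The block moved the count of calls from 91 to 171 in DKO NeuN+, from 37 to 63 in DKO NeuN- and from 19 to 53 for the DKO difference between cell types. With the replicate block Epsti1 in DKO against Mutyh-/- was at -0.02 in NeuN+, 0.11 in NeuN- and -0.10 between the cell types, no call of a member changed, and the sign changed for Parp14 in the departure from additivity in NeuN+ (-0.0050) and, in the Ogg1-/- difference between cell types, for Ifit3 (0.0028) and Cgas (0.017). Under the block 2 genes of the interferon list were called in DKO NeuN-, and 1 gene within 5 Mb of Epsti1 in DKO NeuN+.

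Other settings turned only values near 0. The Ifit3 difference between cell types in Ogg1-/- became 0.0037 with median-of-ratios size factors, 0.0092 without a low-count filter and 0.0010 by the likelihood ratio test. The Cgas difference between cell types in DKO against Mutyh-/- became -0.0011 with the genotypes of the comparison only, -0.013 with at least 10 counts in every library and -0.00039 by the likelihood ratio test. DESeq2 called 1 of the 6 other members, Parp14, for the DKO difference between cell types, and gave an adjusted p for 82 of 119 member values.

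Counts of the interferon list moved. In Mutyh-/- NeuN+ 0 became 3 by DESeq2, by the likelihood ratio test and with the genotypes of the comparison only, and 4 without the filter. In Ogg1-/- NeuN+ the likelihood ratio test called 1, and in DKO NeuN+ 1 was called without the filter. In Mutyh-/- NeuN- DESeq2 and the likelihood ratio test called 2, and the genotypes of the comparison only 0. In DKO NeuN- DESeq2 called 4 and the likelihood ratio test 2, and in DKO against Mutyh-/- NeuN- and the DKO difference between cell types each called 1. Between WT cell types 45 were called with at least 10 counts in every library. Genes called within 5 Mb of Epsti1 in Ogg1-/- NeuN+ numbered 10 with the genotypes of the comparison only and 11 with no fold limit, and in DKO NeuN+ 1 by DESeq2, by the likelihood ratio test and without the filter. The causes were not tested.

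Over all genes, the count of calls moved by over 1.5 times in every comparison. Across the alternatives that kept every library and the fold limit it ran from 113 to 625 beside 129 in Mutyh-/- against WT NeuN+, 172 to 332 beside 173 in Ogg1-/- against WT NeuN+, 89 to 275 beside 91 in DKO against WT NeuN+, 16 to 93 beside 42 in DKO against Mutyh-/- NeuN+, 91 to 175 beside 100 in Ogg1 loss over both Mutyh backgrounds NeuN+, 45 to 116 beside 48 in non-additivity of DKO NeuN+, 70 to 239 beside 87 in Mutyh-/- against WT NeuN-, 73 to 179 beside 73 in Ogg1-/- against WT NeuN-. It further ran from 10 to 178 beside 37 in DKO against WT NeuN-, 2 to 160 beside 39 in DKO against Mutyh-/- NeuN-, 81 to 190 beside 84 in Ogg1 loss over both Mutyh backgrounds NeuN-, 33 to 111 beside 39 in non-additivity of DKO NeuN-, 8615 to 15397 beside 14371 in WT NeuN+ against NeuN-, 7 to 75 beside 7 in Mutyh-/- against WT NeuN+ minus NeuN-, 16 to 65 beside 18 in Ogg1-/- against WT NeuN+ minus NeuN-, 11 to 206 beside 19 in DKO against WT NeuN+ minus NeuN-, 0 to 20 beside 3 in DKO against Mutyh-/- NeuN+ minus NeuN-.

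Leaving out 1 library at a time changed no call of the 6 other members or of Epsti1 in DKO against Mutyh-/-. There Epsti1 ranged from 0.047 to 0.19 in NeuN-. The following uncalled log2 values changed sign in at least 1 such fit, with the range over the fits. Mutyh-/- against WT, NeuN+ gave Ifit1 from -0.11 to 0.16, Ifit3 from -0.61 to 0.011 and Usp18 from -0.030 to 0.39. Ogg1-/- against WT, NeuN+ gave Ifit1 from -0.16 to 0.11 and Ifit3 from -0.095 to 0.16. DKO against WT, NeuN+ gave Ifit1 from -0.18 to 0.087, Ifit3 from -0.24 to 0.11 and Cgas from -0.093 to 0.042. DKO against Mutyh-/-, NeuN+ gave Epsti1 from -0.13 to 0.11, Ifit1 from -0.15 to 0.025 and Ifit3 from -0.054 to 0.59. Ogg1 loss over both Mutyh backgrounds, NeuN+ gave Ifit1 from -0.11 to 0.018 and Ifit3 from -0.00049 to 0.32. Non-additivity of DKO, NeuN+ gave Ifit1 from -0.18 to 0.084, Ifit3 from -0.11 to 0.54, Parp14 from -0.22 to 0.18 and Cgas from -0.15 to 0.0086. Mutyh-/- against WT, NeuN- gave Ifit1 from -0.13 to 0.020, Ifit3 from -0.13 to 0.011, Parp14 from -0.018 to 0.10 and Cgas from -0.026 to 0.14. Ogg1-/- against WT, NeuN- gave Ifit1 from -0.13 to 0.28, Ifit3 from -0.031 to 0.15, Ifih1 from -0.043 to 0.062, Parp14 from -0.060 to 0.12 and Cgas from -0.31 to 0.066. DKO against WT, NeuN- gave Ifit3 from -0.14 to 0.19, Usp18 from -0.16 to 0.0080 and Cgas from -0.17 to 0.013. DKO against Mutyh-/-, NeuN- gave Ifit3 from -0.074 to 0.26. Ogg1 loss over both Mutyh backgrounds, NeuN- gave Ifit3 from -0.0064 to 0.16. Non-additivity of DKO, NeuN- gave Ifit3 from -0.14 to 0.20, Usp18 from -0.055 to 0.13 and Cgas from -0.21 to 0.17. Mutyh-/- against WT, NeuN+ minus NeuN- gave Epsti1 from -0.23 to 0.020, Ifit1 from -0.039 to 0.22, Ifit3 from -0.57 to 0.071, Usp18 from -0.24 to 0.16 and Cgas from -0.018 to 0.14. Ogg1-/- against WT, NeuN+ minus NeuN- gave Ifit1 from -0.28 to 0.12, Ifit3 from -0.15 to 0.11, Usp18 from -0.34 to 0.066 and Cgas from -0.16 to 0.22. DKO against WT, NeuN+ minus NeuN- gave Ifit3 from -0.32 to 0.13 and Cgas from -0.035 to 0.14. DKO against Mutyh-/-, NeuN+ minus NeuN- gave Epsti1 from -0.22 to 0.027, Ifit3 from -0.19 to 0.46 and Cgas from -0.090 to 0.067. The count of the interferon list ran from 0 to 5 in Mutyh-/- NeuN+ (5 without Mutyh-/- NeuN+ replicate 3), from 0 to 1 in Mutyh-/- NeuN-, in DKO against Mutyh-/- NeuN- (1 without Mutyh-/- NeuN- replicate 3), for Ogg1 loss over both Mutyh backgrounds in NeuN- and in the departure from additivity in NeuN- (1 without DKO NeuN- replicate 3), and from 76 to 78 between WT cell types. Genes called within 5 Mb of Epsti1 in Ogg1-/- ran from 5 to 8 in NeuN+ and from 2 to 6 in NeuN- (3 without Ogg1-/- NeuN- replicate 1, 2 without replicate 2).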

Other observations

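Among the DKO libraries, replicate 3 lay apart from the other 2 at several genes near Epsti1 in both cell types, a description chosen after the values were seen. Gm49200 held 2.22 CPM in DKO NeuN+ replicate 3 against 0.985 and 0.938 CPM, and 1.53 CPM against 0.804 and 0.763 CPM in NeuN-. Esd held 7.08 CPM against 8.93 and 9.40 CPM in NeuN+, and 7.47 CPM against 9.49 and 9.27 CPM in NeuN-. Lacc1 held 2.61 CPM against 4.39 and 3.94 CPM in NeuN+, and 5.83 CPM against 9.30 and 7.74 CPM in NeuN-. In each of these cases replicate 3 was the DKO library nearest to the Ogg1-/- libraries, as it was for Rcbtb2. Other genes near Epsti1 did not all share this. In DKO NeuN-, Gm49171 held 17.3 CPM in replicate 3 against 15.4 and 15.3 CPM, with an Ogg1-/- NeuN- mean of 8.15 CPM. Gm49042 there was nearest to Ogg1-/- in replicate 2 (0.473 CPM, against 0.594 CPM in replicate 3). The Epsti1 level of DKO NeuN- replicate 3 was 12.4 CPM against 15.3 and 14.7 CPM. Without that library Epsti1 in DKO against Mutyh-/- NeuN- was at 0.19.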
